A study of Mus musculus with 48 samples.

Results

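The Pmch neurons of the mouse hypothalamus at E18.5 were examined in single-cell RNA counts. A cell was taken as a Pmch neuron when it held at least 1 UMI of Pmch and at least 3 of the 6 neuronal genes Stmn2, Tubb3, Snap25, Syt1, Elavl4 and Rbfox3. A UMI is a unique molecular identifier, which counts 1 captured RNA molecule. The cells were thus chosen by their Pmch UMIs and by those neuronal genes. This rule found 127 cells among 11122 neurons (cells with at least 3 of those 6 genes) and 14121 cells in all. Controls gave 102 of them, of which 72 held 1 UMI of Pmch, 8 held 2 to 4 and 22 held 5 or more. Eed-cKO embryos gave 25, of which 15 held 1 UMI, 3 held 2 to 4 and 7 held 5 or more. The 29 cells with 5 or more UMIs are called Pmch-high neurons, and neurons without a Pmch UMI are called Pmch-negative.

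Pmch encodes pro-melanin-concentrating hormone, the precursor of the peptide MCH. MCH neurons are a small population of the lateral hypothalamus and zona incerta with long projections, known for roles in feeding, energy balance and sleep. They release MCH together with fast transmitters, and their transmitter identity is mixed: they carry the vesicular glutamate transporter gene Slc17a6 and the GABA-synthesising enzyme gene Gad1, while many lack the vesicular GABA transporter gene Slc32a1. Part of them also carry Cartpt, the precursor of the CART peptide, and Tacr3, the neurokinin B receptor.

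Control embryos were Eed fl/fl without Cre. Eed-cKO embryos were Eed fl/fl; Sox1-Cre/+, so that both groups carried the floxed alleles, and Cre was driven by Sox1 in the early neural tube. Eed is a core subunit of polycomb repressive complex 2, which places the repressive mark H3K27me3. There were 6 control embryos (2 female, 4 male; 22 libraries) and 9 Eed-cKO embryos (5 female, 4 male; 26 libraries), and the embryo was the replicate. Embryos are named here by the first parts of their library names, and the leading number was taken to stand for the litter, although the labels do not say so. The 6 control embryos then came from 4 litters and the 9 Eed-cKO embryos from 6, no litter held both genotypes, and genotype and litter cannot be told apart.

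The libraries held 163 to 1207 cells and 576432 to 4513505 UMIs over 16510 genes. The library of 1207 cells, from control embryo F4650_E2, stood apart, since the next held 465 cells. Its cells had a median of 2919 UMIs against 4698.5 elsewhere. It gave 21 of the Pmch neurons and all 6 Pmch-high cells of its embryo. Between libraries, 101 of 14019 cell barcodes occurred more than once, and 1 Pmch neuron carried such a barcode. Eed itself was lower in Eed-cKO neurons, with 30.8 ± 2.1 (SD, n = 6) against 23.1 ± 3.4 (SD, n = 9) CPM (UMIs of a gene per 1000000 UMIs of the sum; log2 change −0.42 ± 0.10 SE, edgeR quasi-likelihood adjusted p = 0.0055).

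Most cells at the edge of the rule held 1 UMI of Pmch. The 87 Pmch neurons with 1 UMI had a median of 5339 UMIs in all, and the 10995 Pmch-negative neurons had 5036. On the neuronal side, 21 Pmch neurons had exactly 3 of the 6 genes, with a median of 1899 UMIs, and 84 had 5 or 6 of them, with a median of 6033 UMIs. Another 12 cells with Pmch had fewer than 3 of the genes and were left out, 11 from controls and 1 from an Eed-cKO embryo. Among them, 6 had 2 of the genes and a median of 874.5 UMIs.

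Within the Pmch-high neurons, Pmch was among the more abundant messages of the cell. In controls F4520_E2 had 3 such cells, with 7, 29 and 102 UMIs of Pmch. F4520_E4 had 4, with 75, 159, 225 and 521 UMIs of Pmch, and F4530_E2 had 1, with 87 UMIs. F4650_E1 had 3, with 88, 106 and 170 UMIs of Pmch. F4650_E2 had 6, with 6, 9, 23, 34, 41 and 116 UMIs of Pmch, which include the lowest value in controls. F4690_E3 had 5, with 23, 77, 122, 136 and 1202 UMIs of Pmch, the last being the highest of all cells. Pmch reached 5.63% of all UMIs of a control cell, and its median over the 22 control cells was 1.29%.

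The 7 Pmch-high cells of Eed-cKO embryos came from 5 of the 9 embryos. F0571_E3 had 2, with 17 and 275 UMIs of Pmch, and F0588_E7 had 2, with 23 and 62. F0589_E1 had 1 with 44 UMIs of Pmch, F0652_E5 had 1 with 10 and F0652_E8 had 1 with 32. The 7 values lay within the control range of 6 to 1202. Their median was 32 UMIs of Pmch against 87.5 in controls, or 0.608% against 1.29% of the cell's UMIs. These levels chose the cells and were not tested.

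**Figure D1:**
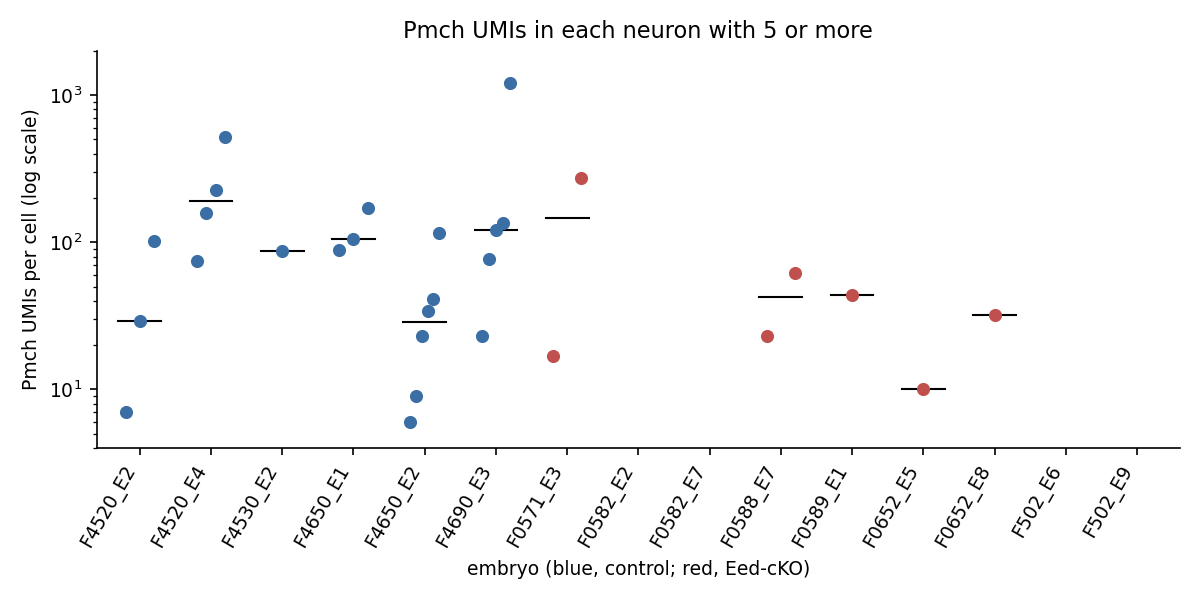
UMIs of Pmch in each Pmch-high neuron (log axis), 1 point per cell, by embryo, with control and Eed-cKO embryos in separate colours and the median of each embryo as a black line. Control cells ran from 6 to 1202 UMIs and Eed-cKO cells from 10 to 275.

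Free RNA gives single UMIs of an abundant peptide gene in cells that do not make it. The share of cells with Pmch was therefore also taken in endothelial, mural, meningeal and microglial cells, which should lack it. In controls, 2 of 276 such cells held a Pmch UMI, or 0.725% (95% exact binomial interval 0.0879 to 2.59%), and these cells had a median depth of 3585.5 UMIs. In control neurons the share with exactly 1 UMI was 1.22% (0.956 to 1.53%), at a median of 5209.5 UMIs. The 2 intervals overlapped, so the 72 control neurons with 1 UMI of Pmch are not shown to express it. With 5 or more UMIs there were 22 control neurons, 0.373% (0.234 to 0.564%), and 0 of the 276 non-neural cells, which allows a share of up to 1.09%. In Eed-cKO embryos 0 of 468 non-neural cells held Pmch, which allows up to 0.641%, at a median of 3644.5 UMIs. Of the Eed-cKO neurons 0.287% (0.161 to 0.473%) held 1 UMI of Pmch and 0.134% (0.0539 to 0.276%) held 5 or more, at a median of 4840 UMIs. Such intervals and limits cover counting error only. After each cell was thinned to 2000 UMIs, which left out the shallower cells, 44 of 5239 control neurons (0.840%) and 16 of 4707 Eed-cKO neurons (0.340%) held Pmch. The same thinning left 2 of 204 control and 0 of 356 Eed-cKO non-neural cells with it. The Pmch-high cells held 97.2% of the Pmch UMIs of control Pmch neurons and 95.1% of those in Eed-cKO.

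Of 4 genes that were far more frequent in Pmch-high cells (Igf1, Cartpt, Otx1 and Zic1, chosen after their values were seen), at least 3 were detected in 18 of 22 control Pmch-high cells (81.8%). The same held for 2 of 8 control cells with 2 to 4 UMIs of Pmch and 0 of 72 with 1 UMI. Among control Pmch-negative neurons 7 of 5796 (0.121%) had 3 or more of the 4 genes. In Eed-cKO the counts were 6 of 7 Pmch-high cells, 2 of 3 cells with 2 to 4 UMIs and 2 of 15 cells with 1 UMI, against 44 of 5199 Pmch-negative neurons (0.846%). Since the genes were chosen in the Pmch-high cells, their share there restates that choice.

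The share of neurons with 1 or more UMIs of Pmch was lower in Eed-cKO embryos. It counts cells with 1 UMI, which were 72 of 102 Pmch neurons in controls and 15 of 25 in Eed-cKO. The control cells with 1 UMI are not shown to express Pmch, and whether free RNA differed with genotype was not tested. In controls the number of Pmch neurons was 8 in F4520_E2, 16 in F4520_E4, 14 in F4530_E2, 16 in F4650_E1, 24 in F4650_E2 and 24 in F4690_E3. In Eed-cKO it was 6 in F0571_E3, 1 in F0582_E2, 0 in F0582_E7, 3 in F0588_E7, 4 in F0589_E1, 5 in F0652_E5, 3 in F0652_E8, 1 in F502_E6 and 2 in F502_E9. As a share of the neurons of each embryo this was 1.74 ± 0.598% (SD, n = 6) in controls and 0.468 ± 0.219% (SD, n = 9) in Eed-cKO. The control embryos, at 0.881 to 2.68%, did not overlap the Eed-cKO embryos, at 0 to 0.680%. The difference of −1.27 percentage points gave p = 0.0002 in a two-sided exact permutation test over 5005 splits of the embryos, the smallest this test can give, and p = 0.000799 after Benjamini-Hochberg adjustment over 4 such tests. After thinning to 2000 UMIs the difference was −0.553 points (exact permutation test, adjusted p = 0.00519).

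The same held for Pmch-high neurons. They made up 0.369 ± 0.150% of control neurons (SD, n = 6; 0.107 to 0.559%) and 0.104 ± 0.110% of Eed-cKO neurons (SD, n = 9; 0 to 0.284%). All 6 control embryos had at least 1, and 4 of 9 Eed-cKO embryos had none, so the ranges overlapped. The difference was −0.265 points (exact permutation test, adjusted p = 0.00426), and without the library of 1207 cells it was −0.192 points (adjusted p = 0.0482). Neurons with 1 UMI of Pmch made up 1.22 ± 0.504% in controls and 0.319 ± 0.203% in Eed-cKO, a difference of −0.897 points (exact permutation test, adjusted p = 0.0024). For 2 to 4 UMIs the shares were 0.155 ± 0.148% and 0.0451 ± 0.0690%, and the difference of −0.110 points did not pass (exact permutation test, adjusted p = 0.0853).

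**Figure D2:**
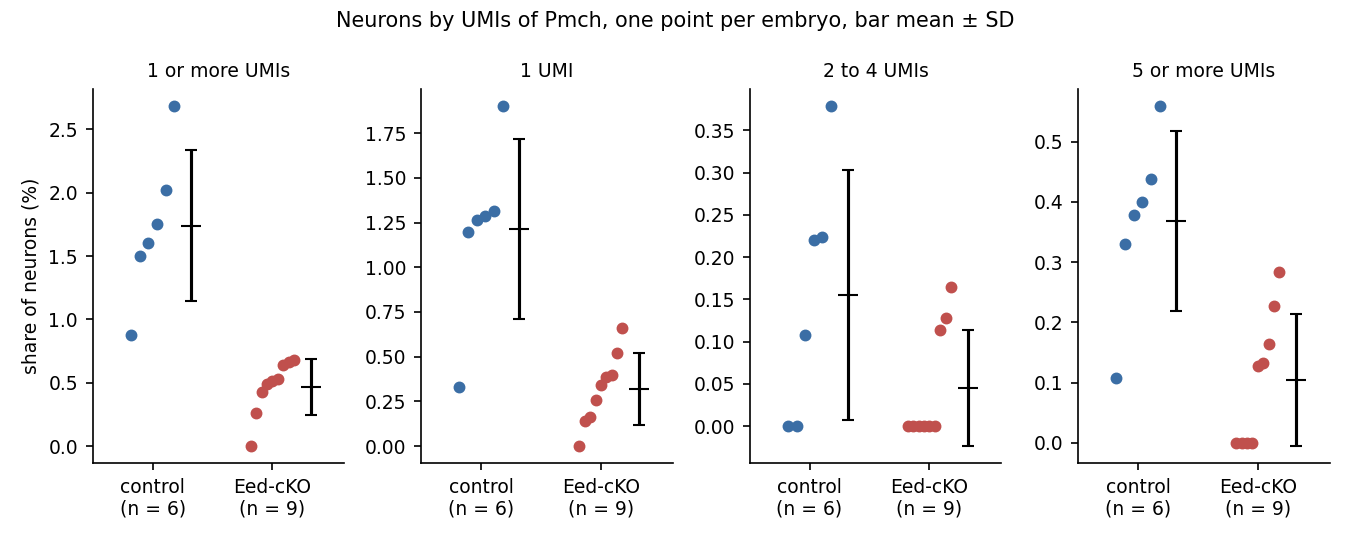
Percent of the neurons of each embryo with 1 or more, exactly 1, 2 to 4 and 5 or more UMIs of Pmch, in 4 panels with their own linear axes, 1 point per embryo, with the mean and SD of 6 control and 9 Eed-cKO embryos. In the first panel the lowest control embryo (0.881%) lies above the highest Eed-cKO embryo (0.680%), and in the last panel the 2 groups overlap.

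The level of Pmch was also summed over all neurons of each embryo. In controls it was 24.3 CPM in F4520_E2, 152 in F4520_E4, 20.0 in F4530_E2, 84.8 in F4650_E1, 39.4 in F4650_E2 and 228 in F4690_E3. In Eed-cKO the level of Pmch was 78.3 in F0571_E3, 1.96 in F0582_E2, 0 in F0582_E7, 16.2 in F0588_E7, 9.15 in F0589_E1, 3.73 in F0652_E5, 10.3 in F0652_E8, 0.485 in F502_E6 and 1.09 in F502_E9. Of the Eed-cKO embryos, F0571_E3 alone lay within the control range, and its 2 Pmch-high cells hold most of its Pmch. The log2 change of Pmch was −2.55 ± 0.64 (SE; edgeR quasi-likelihood adjusted p = 0.0085), in a comparison that called 2163 of 12598 genes (17.2%), 9.34% as higher and 7.83% as lower. Leaving out 1 embryo at a time gave −3.75 (without F0571_E3) to −2.04, and adjusted p of 0.000146 to 0.0340. In such sums, fewer Pmch cells and less Pmch per cell cannot be told apart.

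Which other genes set Pmch-high neurons apart was asked in controls, with the cells of each embryo summed and compared with the Pmch-negative neurons of the same embryo. In these sums Otx1, Igf1, Cartpt, Zic1, Zic4 and Sema3c were higher, and Avp, Tcf7l2, Npy, Gad2 and Zfhx3 were lower. The comparison rests on sums of 1 to 6 cells per embryo, 22 cells in all, against 5796 cells. It tested 10575 genes and called 63 at an adjusted p under 0.05 (0.596%), 33 higher (0.312%) and 30 lower (0.284%). These sums were scaled by library size. TMM scaling, which moved the median over all genes from −0.075 to −0.476 on the log2 scale, called 59 with 18 higher and 41 lower. DESeq2 called 27, with 15 higher and 12 lower. A version limited to the 2 embryos with at least 5 Pmch-high cells called 22 of 11340 genes (0.194%), 8 higher (0.0705%) and 14 lower (0.123%). The genes Cartpt, Ehbp1, Hopx, Igf1, Sema3c, Zic1 and Zic4 (higher) and Avp and Zfhx3 (lower) were called in every alternative other than limma-voom. Values below are log2 differences with their SE and edgeR quasi-likelihood adjusted p.

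Otx1 encodes a homeodomain transcription factor of the forebrain and midbrain. It was found in 16 of 22 control Pmch-high cells and in 64 of 5796 Pmch-negative neurons (1.10%). Its level in Pmch-high cells was 335 CPM in F4520_E2, 175 in F4520_E4, 1163 in F4530_E2, 325 in F4650_E1, 111 in F4650_E2 and 383 in F4690_E3. Pmch-negative neurons had 0.785 to 5.21, so that every embryo was higher in Pmch-high cells (6.52 ± 0.43, adjusted p = 1.4e-48). The filter on low counts, which sets what is tested, was passed by Otx1 only through its Pmch-high sums. Its entry and its rise are thus not independent, and its p is no separate support. Of the 83 control neurons with Otx1, 16 were Pmch-high (19.3%) and 19 were Pmch neurons (22.9%).

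Zic1 and Zic4 encode zinc finger transcription factors of the midline and dorsal neural tube. Zic1 was found in all 22 control Pmch-high cells and in 1406 of 5796 Pmch-negative neurons (24.3%). Its level in Pmch-high cells was 670 CPM in F4520_E2, 845 in F4520_E4, 1745 in F4530_E2, 1754 in F4650_E1, 704 in F4650_E2 and 1124 in F4690_E3. In Pmch-negative neurons Zic1 had 110 to 375, below every embryo's Pmch-high cells (2.42 ± 0.21, adjusted p = 2.0e-27). Zic4 was found in 16 of 22 cells, was at 0 in F4530_E2 and was higher in the other 5 embryos (1.89 ± 0.25, adjusted p = 1.2e-10). The genes Zic1 and Zic4 overlap on opposite strands of chromosome 9, at 91358058 to 91365810 and 91362413 to 91389348 (GRCm38). The strand rule of the counting is not given in the sources used here, so reads of one may count for the other. Zic2 was found in 1 of 22 Pmch-high cells and 944 Pmch-negative neurons, and Irx3 and Irx5 in none of the 22.

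Igf1 encodes insulin-like growth factor 1, a secreted growth factor. It was found in 14 of 22 control Pmch-high cells, with 143 UMIs in all and up to 28 in 1 cell, and in 218 Pmch-negative neurons (3.76%). Its level was 1877 CPM in F4520_E2, 1253 in F4520_E4, 0 in the single cell of F4530_E2, 1104 in F4650_E1, 148 in F4650_E2 and 813 in F4690_E3. Pmch-negative neurons had 9.23 to 34.6 CPM of Igf1, so that 5 of 6 embryos were higher (5.31 ± 0.31, adjusted p = 2.5e-61). Igf1 and Pmch are neighbours on chromosome 10 (GRCm38), with Igf1 at 87858265 to 87937042 and Pmch at 88091072 to 88092375, both on the plus strand and 154 kilobases apart.

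Cartpt, the CART precursor, was found in 14 of 22 control Pmch-high cells, with 109 UMIs, and in 260 Pmch-negative neurons (4.49%). Its level was 670 CPM in F4520_E2, 758 in F4520_E4, 5236 in F4530_E2, 585 in F4650_E1, 1185 in F4650_E2 and 335 in F4690_E3. Pmch-negative neurons had 13.7 to 33.2 CPM of Cartpt, and all 6 embryos were higher in Pmch-high cells (5.21 ± 0.31, adjusted p = 5.0e-59). Pmch neurons were a small part of the Cartpt neurons, 20 of 280 in controls (7.14%), of which 14 were Pmch-high.

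Within the 22 cells, Igf1 and Cartpt did not mark the same cells throughout. Both were detected in 8 cells, Igf1 without Cartpt in 6, Cartpt without Igf1 in 6 and neither in 2. Cells with Igf1 had a median of 119 UMIs of Pmch and those without had 23, at a median depth of 5696.5 and 3463 UMIs per cell. Cells with Cartpt had a median of 94.5 UMIs of Pmch and those without had 64.5. Since a gene is missed more often in a shallow cell, the part of depth in this split was not tested. Tacr3 was found in 3 of the 22 cells, all 3 of them with Igf1. Its call (3.16 ± 0.68, adjusted p = 0.00099) rested on F4520_E4, without which the log2 difference was 0.21 (adjusted p = 0.986).

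Sema3c, a secreted guidance cue, was found in 13 of 22 cells and was higher in 6 of 6 embryos (2.85 ± 0.37, adjusted p = 2.4e-11), as was Igfbpl1, which is related to insulin-like growth factor binding proteins (2.12 ± 0.33, adjusted p = 1.2e-07). Adra2a, the alpha-2A adrenergic receptor, was found in 11 of 22 cells and was at 0 in F4530_E2 (2.86 ± 0.43, adjusted p = 3.6e-08). Of 17 peptide processing genes, all 17 tested, Pcsk1n and Pcsk2 were higher, none was lower, and the list's median was 0.01 against −0.075 over all genes. Pcsk1n encodes proSAAS, an inhibitor of prohormone convertase 1, and had 1006 to 5817 CPM in Pmch-high cells against 856 to 1449 in Pmch-negative neurons (1.06 ± 0.17, adjusted p = 1.2e-07). Pcsk2, a prohormone convertase, differed by 1.44 ± 0.33 (adjusted p = 0.00445), and this call was lost with TMM (adjusted p = 0.221), with DESeq2 and without F4520_E4 or F4690_E3. Pcsk1 had 0 UMIs in the 22 cells, while Cpe, carboxypeptidase E, was found in all 22.

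The genes lower in the sums of Pmch-high neurons included several transmitter and peptide genes of other hypothalamic neurons. Avp, the vasopressin precursor, was found in 2 of 22 cells with 1 UMI each, at 0 in 4 embryos and at 29.1 and 37.0 CPM in F4520_E4 and F4650_E2. Pmch-negative neurons had 180 to 1292 CPM of Avp (−5.63 ± 0.54, adjusted p = 2.4e-22). Tcf7l2, a WNT effector abundant in thalamic neurons, was found in 3 cells (−4.21 ± 0.54, adjusted p = 7.0e-12). Zfhx3, a homeobox transcription factor, fell by 1.75 on the log2 scale (SE 0.29, adjusted p = 6.3e-07). Of 34 other neuropeptide genes 20 were tested, Cartpt was higher, and Avp, Tac1, Npy and Cck were lower. Npy was found in 1 cell (−4.09 ± 0.90, adjusted p = 0.00173) and Cck in 2 (−2.56 ± 0.60, adjusted p = 0.00472). By cells, Avp was held by 9.091% of Pmch-high and 5.487% of Pmch-negative neurons, and Npy by 4.545% and 4.503%. For Tcf7l2 the shares were 13.636% and 17.995%, and for Cck 9.091% and 13.009%. Single Pmch-negative neurons held up to 1889 UMIs of Avp, 224 of Npy, 175 of Tcf7l2 and 79 of Cck. The falls of Avp, Npy, Tcf7l2 and Cck therefore do not show fewer positive cells. Hcrt, the orexin precursor of a neighbouring lateral hypothalamic population, had 0 UMIs in the 22 cells and was found in 1 of the 8 cells with 2 to 4 UMIs of Pmch, with 2 UMIs.

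For 8 of the 30 lower genes the 22 cells held no UMI, so that the size of their difference is not known. A floor of 3 UMIs over the group's 153923 UMIs would make Dlx1 9.30-fold lower, Kitl 7.44-fold, Ebf3 7.0-fold and Kctd12 5.86-fold. Tac1, the substance P precursor, would be 5.49-fold lower, Nrn1 5.25-fold, Synpr 4.88-fold and Nell1 3.48-fold. This floor treats UMIs as independent, although 1 cell can give many, so these values are not bounds. By cells, the exact binomial interval for 0 of 22 reaches 15.4%, and Pmch-negative neurons had 14.6% (Ebf3) to 30.1% (Dlx1). The shares of Ebf3 (14.63%), Kitl (14.67%) and Tac1 (14.99%) lie within that interval. Their absence from the 22 cells therefore does not show fewer positive cells. The shares of Dlx1, Kctd12, Nrn1, Synpr and Nell1 lie above it. Dlx1, a homeobox transcription factor of forebrain GABA neurons, was found in 1746 of the Pmch-negative neurons (30.1%).

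Among transmitter genes, Pmch-high neurons held Gad1 with little Gad2. Gad1 was found in 14 of 22 control cells and 2495 Pmch-negative neurons (43.0%), and Gad2 in 2 of 22 (9.09%, exact binomial interval 1.12 to 29.2%) and 2006 (34.6%). The level of Gad2, the second GABA-synthesising enzyme, was 0 in 4 embryos, 148 CPM in F4650_E2 and 23.9 in F4690_E3, against 139 to 191 in Pmch-negative neurons. It was lower in 5 of 6 embryos, the other being F4650_E2 (−2.31 ± 0.55, adjusted p = 0.00724), and the call was lost in 8 of 17 alternatives, among them DESeq2 (adjusted p = 0.188) and leaving out F4520_E4, F4650_E1 or F4690_E3. Gad1 had 407 to 3490 CPM in Pmch-high cells and 305 to 408 in Pmch-negative neurons, higher in 6 of 6 embryos without passing the test (0.79 ± 0.22, adjusted p = 0.0647). Slc17a6 was found in 16 of 22 cells and differed by −0.11 ± 0.26 (adjusted p = 0.961). Slc32a1 was found in 3 of 22 cells and in 29.1% of Pmch-negative neurons. Of 9 fast transmitter genes 6 were tested, and Gad2 was the 1 called.

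The same genes were also counted cell by cell. Of the 14 control Pmch-high cells with Gad1, 1 also held Gad2 (7.14%, exact interval 0.181 to 33.9%). Among Pmch-negative neurons with Gad1, 1558 of 2495 held Gad2 (62.4%), and among cells with 1 UMI of Pmch 26 of 35 did (74.3%). Cells with Slc17a6 and Gad1 but neither Gad2 nor Slc32a1 made up 9 of 22 Pmch-high cells (40.9%, 20.7 to 63.6%) and 248 of 5796 Pmch-negative neurons (4.28%). This combination was not planned, and its share in the 22 cells is no test apart from the values of the single genes. The intervals treat cells as independent, although several came from 1 embryo. In Eed-cKO this pattern was found in 1 of 7 Pmch-high cells and 469 of 5199 Pmch-negative neurons (9.02%).

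As means over the 6 control embryos, Slc17a6 was found in 76.7 ± 21.1% of Pmch-high cells and 48.8 ± 1.64% of Pmch-negative neurons (SD), higher in 6 of 6 embryos. Gad2 was found in 6.11 ± 9.53% and 35.2 ± 4.04% of cells, lower in 6 of 6 by this measure. Cartpt was found in 69.7 ± 27.1% and 4.52 ± 0.744%, higher in 6 of 6. With 6 embryos, the smallest p that an exact sign-flip permutation test can give is 0.03125, which these 3 genes reached. Hcrt, Lhx9 and Tfap2b reached it too, lower in 6 of 6 embryos, since 0% of Pmch-high cells held them. For each of these genes it became 0.0677 after adjustment over 13 such comparisons. None of the 13 passed.

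**Figure D3:**
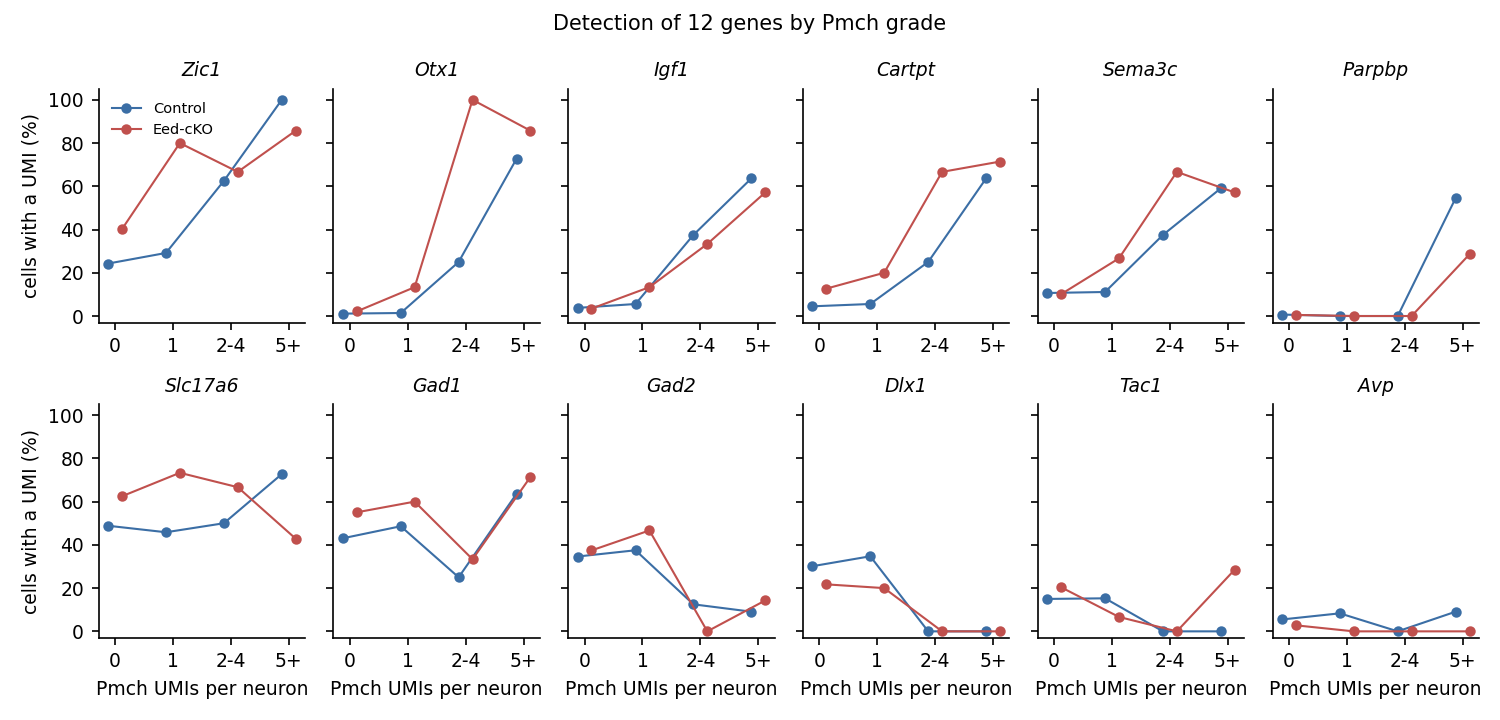
Percent of cells with at least 1 UMI of 12 genes, for neurons with 0, 1, 2 to 4 and 5 or more UMIs of Pmch, in control and Eed-cKO (no error bars, since cells of 1 embryo are not replicates). Otx1 rises from 1.10% of control Pmch-negative neurons to 16 of 22 Pmch-high cells, and Gad2 falls from 34.6% to 9.09%.

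Parpbp is a special case, since its reads can be reads of Pmch. Parpbp, a DNA repair gene, lies at 88091432 to 88146941 on the minus strand of chromosome 10 (GRCm38) and overlaps Pmch by 944 bases, with 435 exonic bases shared. It was found in 12 of 22 control Pmch-high cells, with 44 UMIs, in 0 of 72 control cells with 1 UMI of Pmch and 0 of 8 with 2 to 4, and in 39 of 5796 Pmch-negative neurons (0.673%). Cells with Parpbp had a median of 119 UMIs of Pmch and 8646.5 UMIs in all, and cells without it 26 and 3618.5. In Eed-cKO it was found in 2 of 7 Pmch-high cells and 0.50% of Pmch-negative neurons. Reads of Parpbp and Pmch cannot be told apart here, and no test of Parpbp is given.

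Regional transcription factors were taken from a list. Of 48 lateral hypothalamic and diencephalic factors 35 were tested, with Otx1, Zic1 and Zic4 higher and Onecut2, Dlx1 and Ebf3 lower. In the 22 cells Arnt2 was found in 20, Isl1 in 15 and Nkx2-1 in 14, against 69.2%, 25.8% and 26.5% of Pmch-negative neurons, and none of these was called. Sox2, which was not on the list, was found in 16 against 29.3% and was called higher (1.32 ± 0.31, adjusted p = 0.00605). Lhx9, Lhx1, Lhx6 and Lhx8, LIM homeodomain genes of other hypothalamic neurons, were found in none of the 22, nor in the 7 Eed-cKO cells. In control Pmch-negative neurons their shares were 7.25%, 9.66%, 4.28% and 1.45%, too low for their absence from 22 cells to show a difference. Of 9 MCH co-markers 8 were tested, with a median of 1.40. This list was chosen with earlier results of these data known, and Otx1 and Zic1 stand in both lists. Its median and calls are therefore no independent check of the MCH name. Nptx1, another co-marker, was found in 13.1 ± 14.9% of Pmch-high cells and 6.58 ± 1.07% of Pmch-negative neurons (SD, n = 6, exact sign-flip permutation test, adjusted p = 0.443). Otx1, Cartpt, Tacr3 and Zic1 were higher, and Nrxn3 was lower (−1.50 ± 0.40, adjusted p = 0.0299). Of 30 peptide and transmitter receptors 18 were tested and Tacr3 was the 1 called. Mchr1, the MCH receptor, had UMIs in 0 of the 22 control cells and in 1 of the 7 from Eed-cKO. None of 10 tested genes of the PRC2 list was called (median −0.06).

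Glial genes were also higher in the Pmch-high sums. Of 8 astrocyte and radial glia markers 5 were tested, and Fabp7 (1.63 ± 0.30, 6 of 22 cells, adjusted p = 4.3e-05) and Slc1a3 (2.42 ± 0.43, 2 of 22 cells, adjusted p = 9.8e-06) were higher. At least 1 UMI of 7 of the 8 genes was found, in 14 of 22 cells, and their summed level was 74.1 to 2631 CPM against 166 to 471 in Pmch-negative neurons. Of the 22 cells, 3 held 3 or more of these markers, and 5 were among the 6% of cells with the highest Scrublet doublet scores. All 40 UMIs of Slc1a3 came from 2 of those 3 cells. Without the 3 cells 61 genes were called, Fabp7 was not (0.45, adjusted p = 0.946) and Slc1a3 had no UMI left. Of the 33 higher genes 29 were still tested and 22 called again, and of the 30 lower genes 26 were called again. Without the high Scrublet scores 40 genes were called, with 17 of the 33 higher and 16 of the 30 lower genes among them. Igf1, Cartpt, Zic1, Zic4, Sema3c and Hopx were called either way. Endothelial, pericyte, leptomeningeal, microglial and oligodendrocyte lineage markers were found in 1 to 3 of the 22 cells, and 0 of the 7 Eed-cKO cells held any of them other than 1 oligodendrocyte lineage gene in 1 cell. The part of glial RNA or of doublets in these calls was not tested beyond these values.

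**Figure D4:**
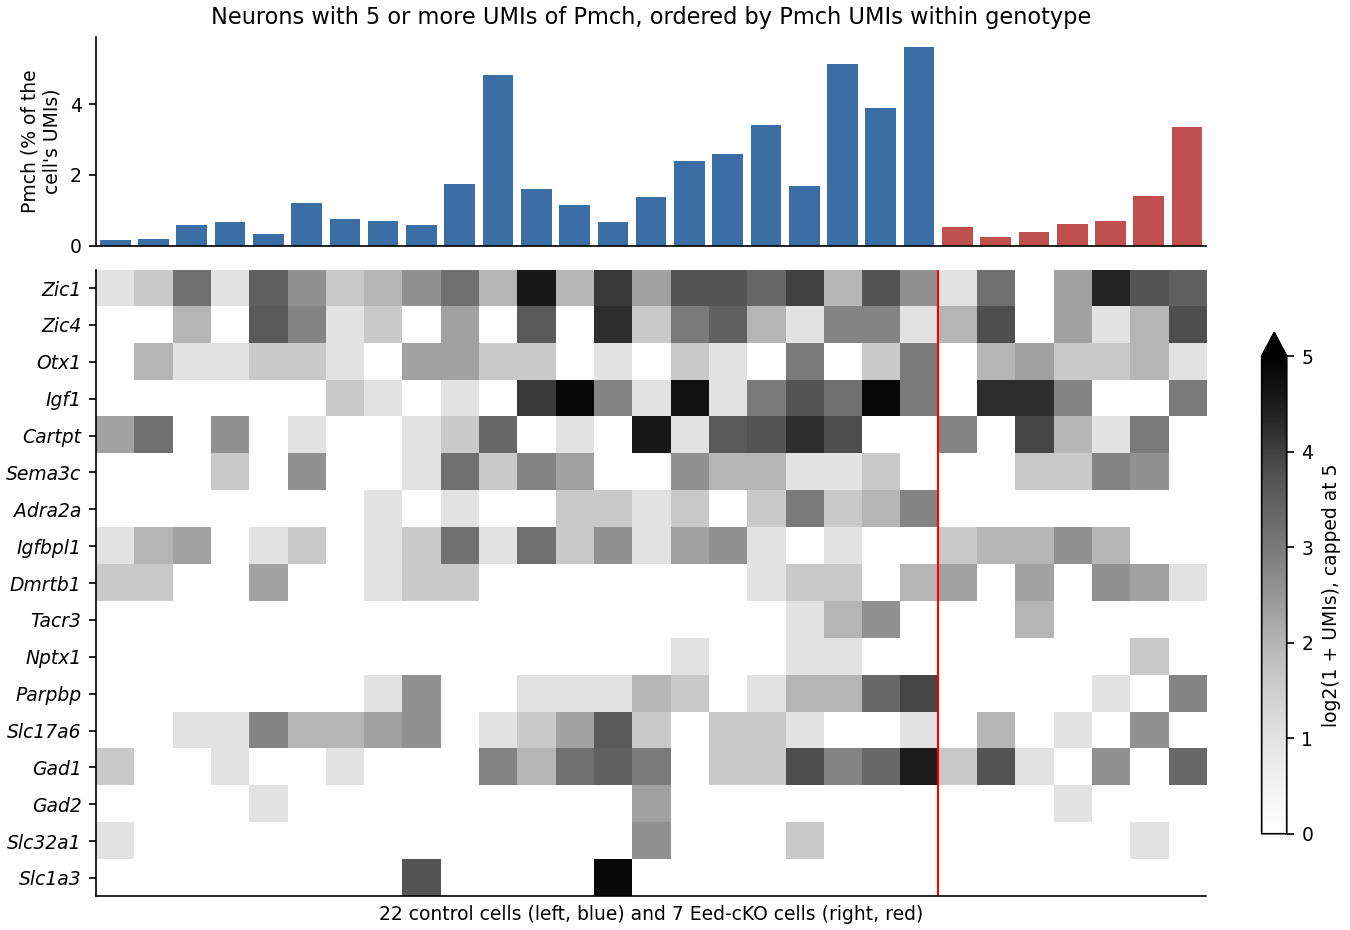
The 29 Pmch-high neurons, ordered by UMIs of Pmch within each genotype, with Pmch as a percent of the cell's UMIs as bars (top) and log2(1 + UMIs) of 17 genes as a heat map capped at 5. Zic1 is present in all 22 control cells, while Igf1 and Cartpt are each present in 14.

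When all 102 control Pmch neurons were summed, in place of the 22, the differences were smaller in most of the genes named above. The comparison called 38 of 10937 genes (0.347%), 23 higher (0.21%) and 15 lower (0.137%). Otx1 differed by 4.82 ± 0.44, Igf1 by 3.35 ± 0.25, Cartpt by 3.14 ± 0.26, Zic1 by 1.17 ± 0.13 and Sema3c by 1.43 ± 0.26. Here too Otx1 passed the filter on low counts only through the sums of Pmch neurons. Avp fell by 3.53 on the log2 scale (SE 0.18, adjusted p = 1.2e-77) and Agrp, a peptide gene of arcuate neurons, differed by −4.06 ± 0.94 (adjusted p = 0.00999). Of control cells with 1 UMI of Pmch, 8.33% held Avp and 1.39% Agrp, against 5.49% and 1.31% of Pmch-negative neurons. Among the 22 Pmch-high cells 2 held Avp and 0 held Agrp. Single Pmch-negative cells held up to 1889 UMIs of Avp and 78 of Agrp, so these falls do not show fewer positive cells. Of the calls, Cartpt, Igf1 and Avp were made under every alternative other than limma-voom. DESeq2 called 7 genes.

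In Eed-cKO embryos the 7 Pmch-high cells, from 5 embryos with 1 or 2 cells each, were compared in the same way with the 5199 Pmch-negative neurons. Igf1, Cartpt, Zic1, Zic4 and Sema3c were again higher. The comparison called 17 of 10400 genes (0.163%), 16 higher (0.154%) and 1 lower (0.00962%). TMM scaling, which moved the median over all genes from −0.349 to −1.32, called 65, with 8 higher and 57 lower.

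Igf1 was found in 4 of the 7 cells, at 1667 CPM in F0571_E3, 1759 in F0588_E7, 0 in F0589_E1 and F0652_E5, and 1147 in F0652_E8. Pmch-negative neurons of Eed-cKO had 6.00 to 26.7 CPM of Igf1 (6.37 ± 0.40, adjusted p = 2.1e-52). Cartpt was found in 5 of 7, at 0 in F0571_E3, 2052 in F0588_E7, 160 in F0589_E1, 3202 in F0652_E5 and 574 in F0652_E8. In 4 of 5 embryos Cartpt was above the 38.3 to 87.3 of Pmch-negative neurons (3.6 ± 0.50, adjusted p = 4.8e-09), and without F0588_E7 the call was lost (2.72, adjusted p = 0.103). Zic1 was found in 6 of 7 cells, at 1200, 1173, 3208, 534 and 765 CPM in the same order, above the Pmch-negative neurons of all Eed-cKO embryos, at 194 to 446 (2.35 ± 0.36, adjusted p = 2.0e-07; with TMM 1.26, adjusted p = 0.101). Otx1 was found in 6 of 7 cells and in 110 Pmch-negative neurons (2.12%), but did not pass the filter on low counts and was not tested here. Its level was 267 CPM in F0571_E3, 684 in F0588_E7, 321 in F0589_E1, 0 in F0652_E5 and 382 in F0652_E8, against 2.52 to 17.0 in Pmch-negative neurons.

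Zic4 was found in 6 of 7 Eed-cKO cells (3.01 ± 0.49, adjusted p = 1.3e-06; not called without F0571_E3), Sema3c in 4 (3.64 ± 0.57, adjusted p = 4.9e-07) and Dmrtb1, a DM-domain gene, in 5 (3.51 ± 0.53, adjusted p = 1.1e-07). Pcsk1n was higher in 5 of 5 embryos (1.31 ± 0.28, adjusted p = 0.00344), a call lost in 8 of 16 alternatives. Hmx3, a homeobox gene, was higher from 3 of the 7 cells (3.62 ± 0.91, adjusted p = 0.0470), and it was also found in 5 of 22 control Pmch-high cells. Sst, the somatostatin precursor, was called lower with 0 UMIs in the 7 cells, and this call was lost in 11 of 16 alternatives. The floor of 3 UMIs would make it 3.72-fold lower, which is again not a bound. Sst was found in 13.1% of Eed-cKO Pmch-negative neurons, and 0 of 7 cells allows a share of up to 42.9%. In controls 1 of 22 cells held Sst, with 21 UMIs. Avp was at 0 in all 7 cells, and Gad2 was found in 1.

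Between genotypes, 9 genes were called higher in Pmch-high neurons of both: Cartpt, Dmrtb1, Ehbp1, Fam46a, Igf1, Pcsk1n, Sema3c, Zic1 and Zic4. In Eed-cKO none of them was called in all 16 alternatives: Igf1 was called in the 15 that tested it, and Ehbp1 was lost in 9 of 16. The 9 genes were 27.3% of the 33 genes higher in controls and 56.2% of the 16 higher in Eed-cKO. Of the genes higher in controls, 28 were tested in Eed-cKO and 17 were above 0 there. The 30 lower genes were all tested and 26 were below 0, but 10 of the 30 had 0 UMIs in the 7 cells, which puts them below 0 whatever their level. Over the 10179 genes tested in both, 4099 were above 0 in Eed-cKO. Adra2a, called in controls, was found in 0 of 7 Eed-cKO cells and 403 Pmch-negative neurons. Whether a gene missing from the 7 cells differed between genotypes was not detectable at this number of cells.

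**Figure D5:**
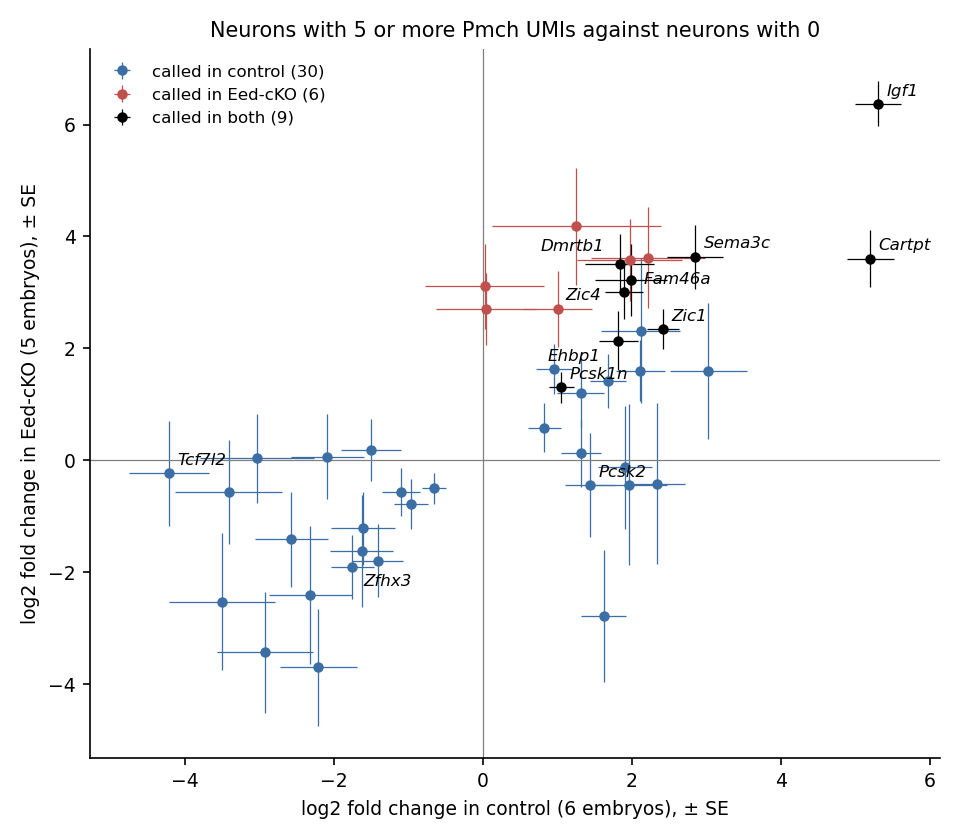
Log2 difference (± SE) of Pmch-high against Pmch-negative neurons in control (x axis, 6 embryos) and Eed-cKO (y axis, 5 embryos), for genes called in either and with UMIs in Pmch-high cells of both. In colour are 30 genes called in control, 6 called in Eed-cKO and 9 called in both, and these 9 lie above 0 on both axes.

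Pmch-high neurons were also compared directly between genotypes, 6 control against 5 Eed-cKO embryos. With so few cells 168 genes passed the filter on low counts, and none was called (0%) by edgeR or DESeq2. At an unadjusted p under 0.05 there were 4 by edgeR and 2 by DESeq2. Cartpt differed by 0.04 ± 0.66, Igf1 by 0.19 ± 0.50, Zic1 by 0.40 ± 0.37 and Gad1 by 0.01 ± 0.43 (log2, Eed-cKO against control, SE). These errors leave room for differences of either sign. In all Pmch neurons, with 6 control embryos and the 2 Eed-cKO embryos that had at least 5, edgeR called 0 of 2806 genes (0%), with 174 at an unadjusted p under 0.05, and DESeq2 called 0. Cartpt was higher in the Eed-cKO neurons as a whole (1.33, adjusted p = 3.1e-05), with UMIs in 658 Pmch-negative neurons (12.7%) against 260 in controls. In Eed-cKO, 10 of 668 Cartpt neurons were Pmch neurons (1.5%), of which 5 were Pmch-high.

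The difference between Pmch-high and Pmch-negative neurons was tested for change with genotype in 1 model over both. It called 3 of 11019 genes (0.0272%), 1 higher (0.00908%) and 2 lower (0.0182%). They were Zc3h6, Fabp7 (−4.39) and Slc1a3, each with adjusted p = 0.0453. Zc3h6 had 0 UMIs in the 22 control Pmch-high cells and Slc1a3 had 0 UMIs in the 7 from Eed-cKO, so that no size of change is given for either. The 40 UMIs of Slc1a3 in control Pmch-high cells came from 2 cells, with 12 and 28. DESeq2, a filter on total counts, thinning, leaving out high Scrublet scores and leaving out cells with 3 astrocyte markers each called 0. At an unadjusted p under 0.05 there were 592 genes by edgeR and 115 by DESeq2. For Cartpt the difference was −1.59 ± 0.46 (adjusted p = 0.707).

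Genes that appear outside their region in Eed-cKO neurons were looked for in the Pmch cells. A Hox gene was found in 2454 of 5199 Eed-cKO Pmch-negative neurons (47.2%), with 35.6 to 61.2% per embryo. It was found in 6 of 15 Eed-cKO cells with 1 UMI of Pmch (40.0%, exact interval 16.3 to 67.7%), in 0 of 3 with 2 to 4 and in 1 of 7 Pmch-high cells (14.3%, 0.361 to 57.9%). That cell, from F0571_E3, held 1 UMI of Hoxa10. No control Pmch neuron held a Hox gene (0 of 102). The class difference in the share of cells with a Hox gene was −36.8 points in Eed-cKO against control (exact permutation test over 462 splits, p = 0.0152, adjusted p = 0.0657). Of 13 such differences the 1 for Tfap2b passed (−11.5 points, exact permutation test, p = 0.00216, adjusted p = 0.0281), and it was lost in 13 of 17 alternatives. Tfap2b, a transcription factor, was absent from Pmch-high cells of both genotypes and was found in 0.176% of control and 11.7 ± 3.07% (SD, n = 5) of Eed-cKO Pmch-negative neurons. Its class difference was therefore set by the Pmch-negative neurons alone, and 0 of 7 Eed-cKO Pmch-high cells allows a share of up to 42.9%. For Slc17a6 the difference was −51.0 points (exact permutation test, p = 0.0325, adjusted p = 0.106), with 40.0 ± 41.8% of Pmch-high cells in Eed-cKO embryos (SD, n = 5).

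Of cell cycle inhibitor genes, Cdkn2a was found in 132 Eed-cKO Pmch-negative neurons (2.54%) and in 0 of 25 Eed-cKO Pmch neurons, too few cells to show a difference. Cdkn1c was found in 14 of 22 control Pmch-high cells against 30.5% of Pmch-negative neurons, and in 2 of 7 against 38.2% in Eed-cKO. Cdkn2d was found in 7 of 22 against 31.5% in controls, and in 6 of 7 against 30.9% in Eed-cKO. Of 7 such inhibitor genes 4 were tested in the control comparison of the 2 classes and 5 in that of Eed-cKO. None was called in either, nor among the 5 tested in the genotype by class model.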

How the data were processed

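The authors deposited UMI counts per gene and cell of E18.5 hypothalamus, from SureCell libraries, with cells filtered before deposit. The submitters' processing notes name STAR 2.5.2b, SAMtools 1.3 and build mm10, and the strand rule of counting is not given in the sources used here. The deposited counts were used as they are. Members and gene lists were chosen with earlier results of these data known. Cells were assigned to embryos by library name, and counts were summed per embryo and class. Pmch and the 6 rule genes were left out of the class comparisons. Sums were tested in R 4.3.3 with the quasi-likelihood test of edgeR 4.0.16 (embryo as a block within genotype, TMM scaling, Benjamini-Hochberg adjustment over all genes tested, adjusted p under 0.05). For sums of 1 to 6 cells library size alone was used in place of TMM, and 1 cell per embryo was accepted where 5 had been planned. Both were chosen after seeing the data. DESeq2 1.42.0, limma 3.58.1 (voom with TREAT at 0.18), thinning to 2000 UMIs, Scrublet (scanpy 1.11.5, the 6% highest scores) and leaving out embryos were alternatives. Doublets were not removed otherwise. Shares were compared with exact permutation tests over embryos (scipy 1.17.1). Embryos are separate animals. Named genes were Pmch, the 6 rule genes, members of the lists, the genes of the share tests, and in each comparison the 6 largest called changes in each direction among genes whose embryos all moved one way. Adra2a, Dmrtb1, Fam46a, Nell1, Sox2, Tcf7l2, Zc3h6 and Zfhx3 fall outside this rule and were chosen after their values were seen. Coordinates are from GENCODE on GRCm38. Genes left out of the table were not analysed here.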

Additional observations from a re-analysis of the deposited data

Results flagged for a closer look

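Each of the values below stood apart from the rest of its group or differed between the genotypes. Of 26 groups of 4 to 10 embryos looked at, 5 held an embryo whose gap to the others passed Dixon's 95% limit, which chance gives in about 1 of 20 groups. Among Eed-cKO embryos Pmch in all neurons was 78.3 CPM in F0571_E3, far from the other 8. In control Pmch-high neurons Cartpt was 5236, Otx1 1163 and Gad1 3490 CPM in F4530_E2, whose sum is 1 cell of 1806 UMIs. In Eed-cKO Pmch-high neurons Zic1 was 3208 CPM in F0589_E1, also 1 cell.

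The difference between Pmch-high and Pmch-negative neurons changed with genotype for Zc3h6 (11.88 on the log2 scale, Eed-cKO against control), Fabp7 (−4.39) and Slc1a3 (−13.18), each with an edgeR quasi-likelihood adjusted p of 0.0453. The values for Zc3h6 and Slc1a3 are fitted against 0 UMIs in 1 group of Pmch-high cells, so they depend on the model and measure no size of change. Among Pmch-high cells, none of the 22 from controls and 3 of the 7 from Eed-cKO embryos held Zc3h6, with 6 UMIs. Slc1a3 had UMIs in 2 of the 22 control cells and in none of the 7. The share of cells with Tfap2b had a class difference that changed by −11.5 points (exact permutation test, adjusted p = 0.0281), with no Pmch-high cell positive in either genotype. Among cells outside the neuronal rule, 1 control cell of 728 UMIs held 7 UMIs of Pmch.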

How the results depend on the processing

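The Pmch level in all neurons stayed lower in Eed-cKO and past the threshold in all 27 alternatives, at log2 −3.75 to −2.04. Differences in the share of neurons with 1 or more, 1, and 5 or more UMIs of Pmch stayed past it too. The difference in the share of neurons with 2 to 4 UMIs of Pmch passed after thinning (−0.128 points), with at least 4 of 6 neuronal genes (−0.126), with litter means (−0.114) and without cells with 3 astrocyte markers (−0.125), and it ran from −0.141 to −0.0651 with 1 embryo left out. Genes that set control Pmch-high neurons apart numbered 63, and 27 with DESeq2, 1151 with limma-voom and TREAT, 12 after thinning, 40 without high Scrublet scores, 40 without the embryo block, and 38 (without F4520_E4) to 73 with 1 embryo left out. Limited to embryos with 5 or more such cells they numbered 22, and 5 with DESeq2 and 0 with limma-voom, which had 1129 at an unadjusted p under 0.05. In Eed-cKO they numbered 17, and 65 with TMM, 9 with DESeq2 size factors, 11 with DESeq2, 6121 with limma-voom, 2 after thinning, 9 without high Scrublet scores, 11 with at least 4 neuronal genes, 9 without the embryo block, and 7 to 11 with 1 embryo left out. For all control Pmch neurons they numbered 38, and 7 with DESeq2, 4 with limma-voom, 13 after thinning, 15 without high Scrublet scores (where Slc1a3 turned to −0.40), 10 without the block, and 10 to 38 with 1 embryo left out. Between genotypes the call count in all Pmch neurons was 0, 1 with the filter on total counts and 0 to 1 with 1 embryo left out. The genotype by class model gave 3 genes, 34 with limma-voom, 1 with at least 4 neuronal genes, 0 with the total filter, DESeq2, thinning, high Scrublet scores left out or cells with 3 astrocyte markers left out (where Fabp7 turned to 0.0617), and 0 to 3 with 1 embryo left out. The 1 share whose class difference changed with genotype (Tfap2b) was 0 after thinning, without high Scrublet scores, with 4 neuronal genes, with litter means and without the library of 1207 cells, and 0 to 2 with 1 embryo left out. Over all genes in all neurons 2163 were called, 748 with limma-voom and TREAT, 1005 after thinning and 3815 with libraries as samples. The cause of these changes was not tested. Library-size scaling, 1 cell per embryo, the library of 1207 cells and the astrocyte markers were settings chosen after seeing the data. Versions with at least 5 Pmch-high cells in both genotypes could not be fitted, since no Eed-cKO embryo had 5. With 7 Eed-cKO Pmch-high cells, differences in low genes were not detectable.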

Other observations

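The share of neurons with 1 UMI of Pmch was also taken by library. In controls it was 1.29% over the 13 libraries that held a Pmch-high cell and 1.09% over the 9 that held none. In Eed-cKO it was 0.140% over 7 libraries with a Pmch-high cell and 0.343% over 19 without. Other peptide genes seen in the 22 control Pmch-high cells were Adcyap1, in 5 cells, and Pdyn, in 4. Th, the dopamine-synthesis enzyme gene, was found in none of them.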
